A study of Canis lupus familiaris with 33 samples.

Results

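ENSCAFG00000014040 and ENSCAFG00000024883 are 2 of the 30951 genes in the count table, and they were chosen because their RNA was far higher in canine oligodendroglioma than in healthy dog brain, in both kinds of tissue preservation. The values that chose them were the tumour-minus-control differences and the separation of the libraries, so levels by tumour and control are given here as a description, with no test. The table pairs no gene name with these identifiers, and a name, a protein product and a pathway are therefore not given. Markers of brain cell types could not be looked up for the same reason, so the labelled tissue was not checked against them.

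Oligodendroglioma is a tumour of glial cells that resembles the lineage of oligodendrocytes, the cells that wrap axons in myelin, and it is common in short-nosed breeds such as the Boxer and the French Bulldog. Genes that are high in such a tumour and low in healthy brain are sought as tumour-associated antigens, and the study asked whether formalin-fixed paraffin-embedded (FFPE) archive blocks can serve that search. Formalin cross-links and fragments RNA, while freezing leaves it largely intact. RNA was taken from bulk tissue, so fewer cells of a type and less RNA per cell cannot be told apart.

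The 33 libraries came from 25 dogs, sampled at necropsy 1 to 18 hours after death. FFPE tumours came from 11 dogs (6 French Bulldogs, 4 Boxers and 1 dog labelled Pomerian; 9 of grade III and 2 of grade II; 4.7 to 12 years old in the 10 dogs with a stated age), and FFPE control brain, labelled healthy, from 10 dogs (5 French Bulldogs, 4 Boxers and 1 Bolonka Swetna; 2 to 8 years in the 5 with a stated age). Fresh-frozen tumours came from 6 dogs (3 French Bulldogs, 1 Boxer, 1 Border Terrier and 1 Pomerian; 5 of grade III and 1 of grade II; 4.7 to 10 years in 5) and fresh-frozen controls from 6 dogs of 5 breed labels (2.8 to 10.2 years in 5). These frozen controls were 2 French Bulldogs and 1 dog each labelled Hovawart, Mongrel, Berner sennenhund and Bolonka Swetna, with no Boxer. Each library came from 1 dog, no treatment was stated, and 8 dogs (5 with tumour) gave a library of each preservation. Total counts per library ran from 406406 to 12501029 in FFPE tissue, with 1 exception of 32584840, and from 9765907 to 26726025 in frozen tissue. With group means removed, 4 frozen libraries (dogs 60126, 60127, 60461 and 60462) stood apart on principal component 2, with scores of 0.306 to 0.492, where the other 8 had -0.318 to -0.083.

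ENSCAFG00000014040 lies on the forward strand of chromosome 20 of the CanFam3.1 assembly, from 43234387 to 43289765, with 9 exons that sum to 3231 bp over a span of 55379 bp. ENSCAFG00000024883 lies on the forward strand of chromosome 35, from 20099773 to 20101154, with 2 exons that sum to 1035 bp over 1382 bp. Neither overlaps another annotated gene, and the nearest annotated gene is 34465 bp away for the former and 7252 bp away for the latter. Both passed the filter on low counts in each comparison.

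In FFPE tumours ENSCAFG00000014040 ran from 0.989 to 224.5 CPM (counts scaled to the library's total count), with a median of 37.4. Dog 60749 had the highest level, 224.5 CPM, and dog 60636 had 117 CPM. Dogs 60679, 60461 and 43917 had 64.1, 55.3 and 50.2 CPM. Dogs 60792, 60177 and 51234 followed with 37.4, 32.6 and 17.7 CPM. These 8 tumours lay above every FFPE control. Dogs 60127, 44331 and 50416 had 6.80, 1.93 and 0.989 CPM, and these 3 lay below the highest control. The level in dog 50416 rested on 3 counts (exact 95% Poisson interval 0.204 to 2.89 CPM) and that in dog 44331 on 11 counts (0.963 to 3.45 CPM), intervals that cover counting error only. In FFPE controls the same gene ran from 0 to 16.4 CPM with a median of 1.98. Dogs 45726 and 50315 had no count, where 3 counts would have been 1.06 and 7.38 CPM, so the shallow library of dog 50315 allows a level above that of 8 other controls. Control dog 61478 had 16.4 CPM from 67 counts, and the next control, dog 60462, had 5.01 CPM.

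In fresh-frozen tumours ENSCAFG00000014040 had 351 CPM in dog 60631, 189.5 in 60749, 153 in 60679, 84.3 in 60461, 37.6 in 60636 and 21.02 in 60127. The frozen controls ran from 1.72 to 11.1 CPM with a median of 2.49, the highest being dog 60516. The lowest frozen tumour was thus above the highest frozen control. On the log2 CPM scale (scaled by trimmed mean of M values, TMM, prior count 2) the mean was 6.37 ± 1.40 in frozen tumours and 1.70 ± 0.86 in frozen controls (SD, n = 6 each), and 4.64 ± 2.26 in FFPE tumours (n = 11) and 0.76 ± 2.07 in FFPE controls (n = 10). The fitted log2 fold change (edgeR) was 5.05 ± 0.70 (SE) in frozen and 3.77 ± 0.77 in FFPE tissue. By size it was number 27 of 15057 genes tested in frozen and number 4 of 13338 in FFPE tissue. Without control dog 61478 the FFPE value was 4.59, without the 8 dogs that also gave frozen tissue it was 2.61 and the gene was no longer among those called (edgeR adjusted p = 0.0682, given as a limit and not as a test), and without frozen tumour 60631 the frozen value was 4.47. Without the 4 frozen libraries that stood apart it was 4.96. The difference between the preservations was not tested, because both comparisons chose the gene.

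ENSCAFG00000024883 was the more abundant of both genes per length of exon. In FFPE tumours it ran from 5.52 to 409 CPM with a median of 103.8. Dogs 60749, 60792 and 51234 had 409, 301 and 288 CPM, and dogs 60177, 43917 and 50416 had 157, 156 and 104 CPM. Dogs 60636 and 60461 had 62.1 and 55.9 CPM. The 3 tumours that did not exceed the highest control were dogs 44331 with 24.02 CPM, 60679 with 22.2 and 60127 with 5.52. FFPE controls ran from 0.626 to 38.6 CPM with a median of 10.0 CPM. Control dog 61478 was again the highest, at 38.6 CPM, and dog 36808 followed at 14.2 CPM. The lowest control, dog 60462, rested on 1 count. Without dog 61478, 10 of 11 FFPE tumours lay above every control on the log2 scale, and for ENSCAFG00000014040 9 of 11 did, against 8 of 11 for each gene with that dog included. Over all genes tested, 10.1% were called higher in FFPE tumours and 18.3% in frozen tumours (edgeR, adjusted p under 0.05), with 21.1% and 30.5% called in either direction. Since the genes were chosen on these contrasts nothing is read from their counts.

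In fresh-frozen tumours ENSCAFG00000024883 had 332 CPM in dog 60631, 233 in 60749, 99.6 in 60679, 82.6 in 60461, 45.4 in 60636 and 22.01 in 60127. Frozen controls ran from 2.66 to 17.1 CPM with a median of 5.56. Dog 60516 was again the highest frozen control, and no frozen tumour lay below it. The mean log2 CPM was 6.36 ± 1.33 in frozen tumours and 2.61 ± 0.73 in frozen controls (SD, n = 6 each), and 6.37 ± 1.87 in FFPE tumours (n = 11) and 2.97 ± 1.44 in FFPE controls (n = 10). The fitted log2 fold change was 4.16 ± 0.62 (SE) in frozen and 3.598 ± 0.65 in FFPE tissue, number 69 and number 6 by size. By limma voom with quality weights the FFPE value was 2.91. Without the 4 frozen libraries that stood apart the frozen value was 4.19, and without frozen tumour 60631 it was 3.59.

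Per kb of exon the median level in FFPE tumours was 100.3 CPM for ENSCAFG00000024883 and 11.6 CPM for ENSCAFG00000014040. In frozen tumours these medians were 88.0 and 36.7 CPM per kb. In FFPE controls they were 9.67 and 0.613, and in frozen controls 5.37 and 0.771 CPM per kb. Ranked by CPM per kb among the genes tested in either comparison, ENSCAFG00000024883 was in the top 4.08% of genes in the median FFPE tumour and the top 44.8% in the median FFPE control. ENSCAFG00000014040 was in the top 37.6% and the top 89.2%. In frozen tissue the median tumour and control were at the top 6.24% and 60.0% for ENSCAFG00000024883, and 19.5% and 87.45% for ENSCAFG00000014040. ENSCAFG00000024883 was thus of middle rank in control brain, lower in frozen than in FFPE controls, and among the abundant genes of most tumours. ENSCAFG00000014040 was near the bottom of the list in controls.

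**Figure D1:**
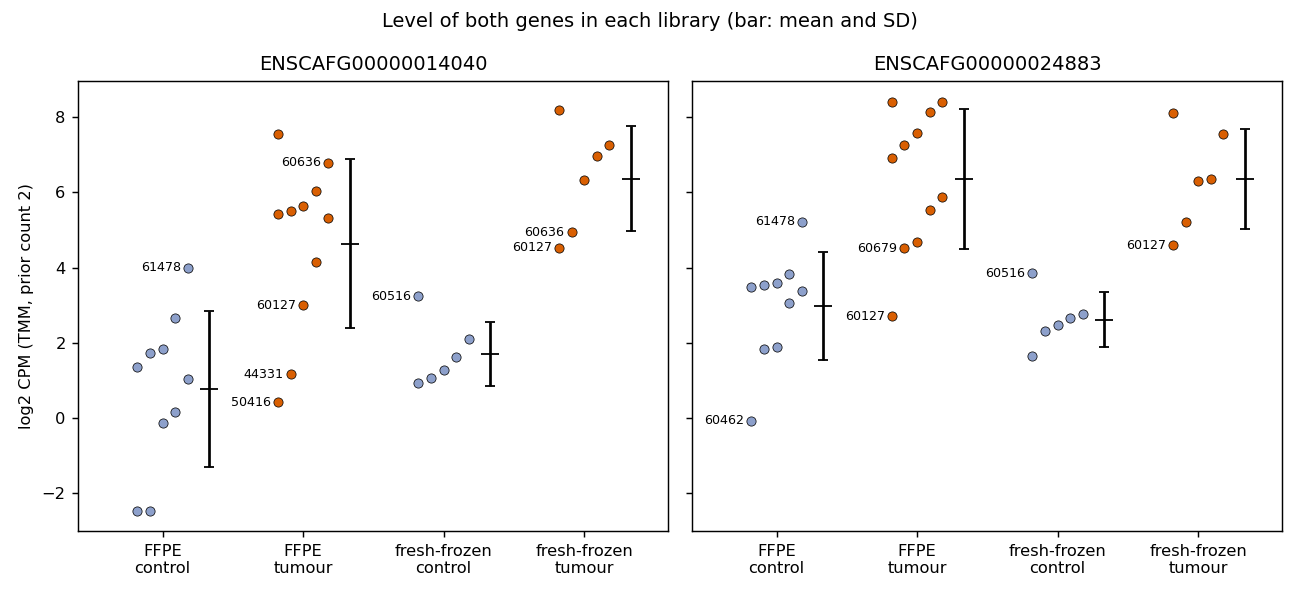
Level of each gene in every library, in log2 CPM (TMM, prior count 2), by group, with the mean and SD beside the points (FFPE: 11 tumours and 10 controls, fresh-frozen: 6 and 6). FFPE tumours of dogs 44331, 50416 and 60127 lie among the controls for ENSCAFG00000014040, control dogs 61478 and 60516 are the highest controls for both genes, and frozen tumours lie above all frozen controls.

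The FFPE tumours below the highest control were not the same for both genes, and they differed in the rest of their profile. Dogs 44331 and 60127 were below the highest FFPE control for both genes, dog 50416 for ENSCAFG00000014040 alone and dog 60679 for ENSCAFG00000024883 alone. A library's position was described by the median difference from the control mean over 1119 other genes that were called higher, and 851 called lower, in both tumour comparisons. These lists were chosen on the same libraries, so the positions are a description. In dog 50416 the higher genes stood at 1.56 and the lower genes at -2.26 on the log2 scale, the most negative value of the 11 FFPE tumours. ENSCAFG00000024883 was high there too, at 104 CPM, so of both genes ENSCAFG00000014040 alone was low in that library. Dog 44331 stood nearest to the controls, with 0.49 for the higher and -0.39 for the lower genes. Dog 60127 stood at 0.91 and -0.63, and dog 60679 at 1.22 and -0.79. FFPE controls other than dog 61478 ran from -0.52 to 0.32 for the higher genes. Control dog 61478 stood at 0.85, between tumour dogs 44331 and 60127. For the lower genes it stood at -0.24, where control dogs 60462 (-0.64) and 50315 (-0.28) were more negative. Frozen control 60516 was also the highest of its group for the higher genes, at 0.33, where the other 5 frozen controls ran from -0.12 to 0.06.

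The share of counts from the mitochondrial genome was set beside these values, and no relation passed after adjustment. Dogs 60127, 44331 and 50416 had the highest shares of the FFPE tumours, 34.6%, 31.96% and 31.6%, and the other 8 ran from 9.61% to 29.1%. Over the 11 FFPE tumours the share correlated with ENSCAFG00000014040 at a Pearson r of -0.71 (permutation p = 0.0141, adjusted p = 0.0537 over 9 relations that were added after the data were seen) and a Spearman rho of -0.72 (permutation p = 0.0163, adjusted p = 0.0677). Without the 2 libraries farthest from the median share, r was -0.61. For ENSCAFG00000024883 r was -0.60 (permutation p = 0.0517, adjusted p = 0.108), rho was -0.65 (permutation p = 0.0376, adjusted p = 0.0677), and r without those 2 libraries was -0.30. In frozen tumours dog 60127 had a share of 23.3%, where the other 5 had 4.06% to 8.92%, and was the lowest tumour for both genes. Over the 6 frozen tumours r was -0.75 for ENSCAFG00000014040 (exact permutation p = 0.0528, adjusted p = 0.209; rho -0.77, exact permutation p = 0.103, adjusted p = 0.308) and -0.72 for ENSCAFG00000024883 (exact permutation p = 0.0833, adjusted p = 0.209; rho -0.77, exact permutation p = 0.103, adjusted p = 0.308). These fell to -0.33 and -0.033 without the 2 farthest libraries. The part of RNA quality or tissue content in these levels was not tested.

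The 5 tumours with both preservations give the level of the same dog in both tissues. For ENSCAFG00000014040 the FFPE and frozen libraries had 224.5 and 189.5 CPM in dog 60749, 117 and 37.6 in 60636, 64.1 and 153 in 60679, 55.3 and 84.3 in 60461, and 6.80 and 21.02 in 60127. For ENSCAFG00000024883 they had 409 and 233 CPM in dog 60749, 62.1 and 45.4 in 60636, 22.2 and 99.6 in 60679, 55.9 and 82.6 in 60461, and 5.52 and 22.01 in 60127. Dog 60749 was the highest and dog 60127 the lowest of the 5 in each preservation and for both genes. Within each tumour dog both genes, which share each library, differed in the same direction, FFPE being higher in dogs 60749 and 60636 and lower in the other 3. For ENSCAFG00000024883 the FFPE library of dog 60679 lay below control dog 61478 alone and above the other 9 FFPE controls, and its frozen library lay above every frozen control. Dog 60127, whose FFPE library was below the highest FFPE control for both genes, lay above every frozen control in its frozen library, as the lowest of the 6 tumours.

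In the 3 control dogs with both preservations the levels stayed low in each. ENSCAFG00000014040 had 0.878 (FFPE) and 2.26 CPM (frozen) in dog 60460, 2.09 and 1.72 in 60126, and 5.01 and 1.76 in 60462. ENSCAFG00000024883 had 3.18 and 5.40, 3.1 and 2.66, and 0.626 and 6.78 CPM in the same dogs. The preservation contrast was not used to choose the genes and was tested over all 17097 genes that passed the filter, with tissue as a covariate. FFPE minus frozen was 0.08 ± 0.51 (SE) for ENSCAFG00000014040 (edgeR adjusted p = 0.955; FFPE higher in 4 of 8 dogs) and -0.14 ± 0.62 for ENSCAFG00000024883 (edgeR adjusted p = 0.930; FFPE higher in 3 of 8 dogs). Of all genes tested there, 2.95% were called in either direction. A difference between preservations was therefore not detected for either gene. That fit took both libraries of a dog as independent, and a difference of 2-fold lies within the range its standard errors allow. With the dog as a block, ENSCAFG00000014040 had -0.15 ± 0.38 (SE; edgeR adjusted p = 0.835). ENSCAFG00000024883 had -0.63 ± 0.37 with the block (edgeR adjusted p = 0.307), a range that covers a 2-fold lower level in FFPE tissue. Without the block, ENSCAFG00000024883 had -0.63 by limma voom (adjusted p = 0.542) and 0.26 in tumour dogs alone (edgeR adjusted p = 0.982).

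**Figure D2:**
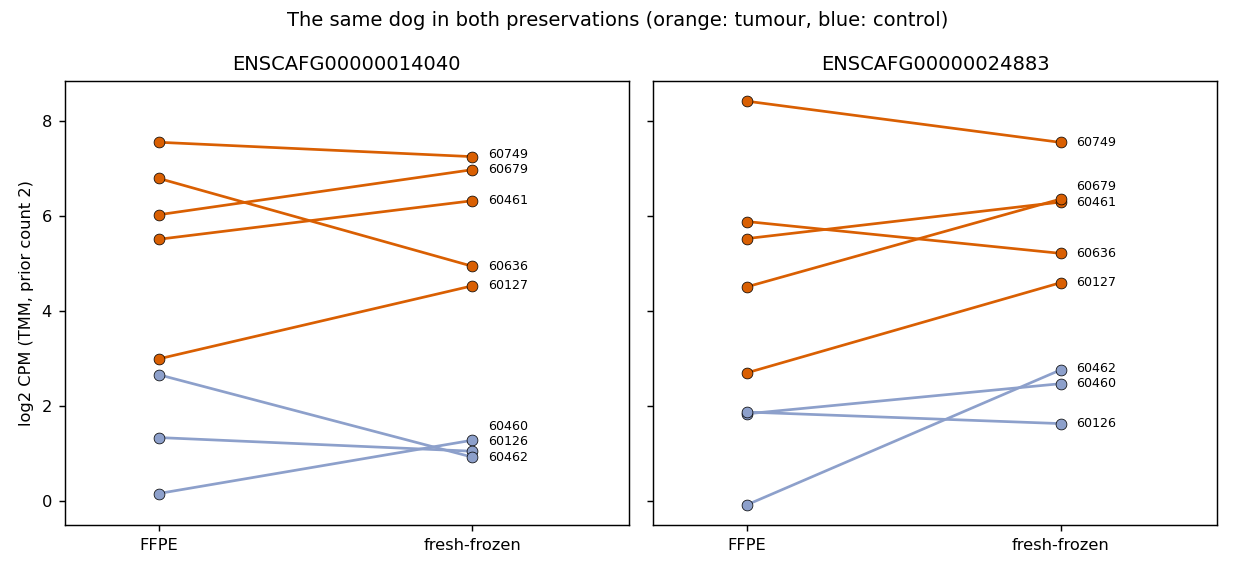
Level of each gene in the FFPE and the fresh-frozen library of the same 8 dogs, in log2 CPM (TMM, prior count 2), with a line per dog. Tumour dogs stay above control dogs in each preservation, dog 60749 is the highest tumour and dog 60127 the lowest, and the lines slope both ways.

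Among the 6 frozen tumours both genes put the dogs in the same order, 60631, 60749, 60679, 60461, 60636 and 60127. The Pearson r of their log2 CPM was 0.97 and the Spearman rho 1.0 (exact permutation p = 0.00278 for each, the smallest that 6 libraries allow; adjusted p = 0.0139 over 5 relations). Without the 2 libraries farthest from the median r was 0.91. High r was more frequent over 6 frozen than over 11 FFPE tumours. Of the 11860 other genes compared below, 6.0% had r of at least 0.8 with ENSCAFG00000014040 in frozen and 0.725% in FFPE tumours. With ENSCAFG00000024883 these shares were 6.45% and 2.65%. Leaving out each tumour in turn gave r of 0.95 to 0.99 over 5 libraries, and the adjusted exact permutation p was 0.0833 without dog 60636, 60679, 60127 or 60461 and 0.0417 without dog 60631 or 60749. Among the 11 FFPE tumours r was 0.32 (permutation p = 0.329, adjusted p = 0.577 over 7 relations) and rho 0.25 (permutation p = 0.450, adjusted p = 0.787), and r without the 2 farthest libraries was 0.39. Leaving out each FFPE tumour in turn gave r from 0.20 to 0.49. Whether the relation differs between preservations was not tested. Among controls, a relation looked at after the data were seen, r was -0.01 over 10 FFPE libraries (permutation p = 0.987; rho -0.02, permutation p = 0.966; r of -0.11 without the 2 farthest) and 0.76 over 6 frozen libraries (exact permutation p = 0.164; rho 0.26, exact permutation p = 0.658). The frozen value rested on dog 60516, and r was -0.80 without the 2 farthest libraries. On the frozen second component only 2 tumours lie in the set of 4 dogs, so within-set correlations could not be given.

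**Figure D3:**
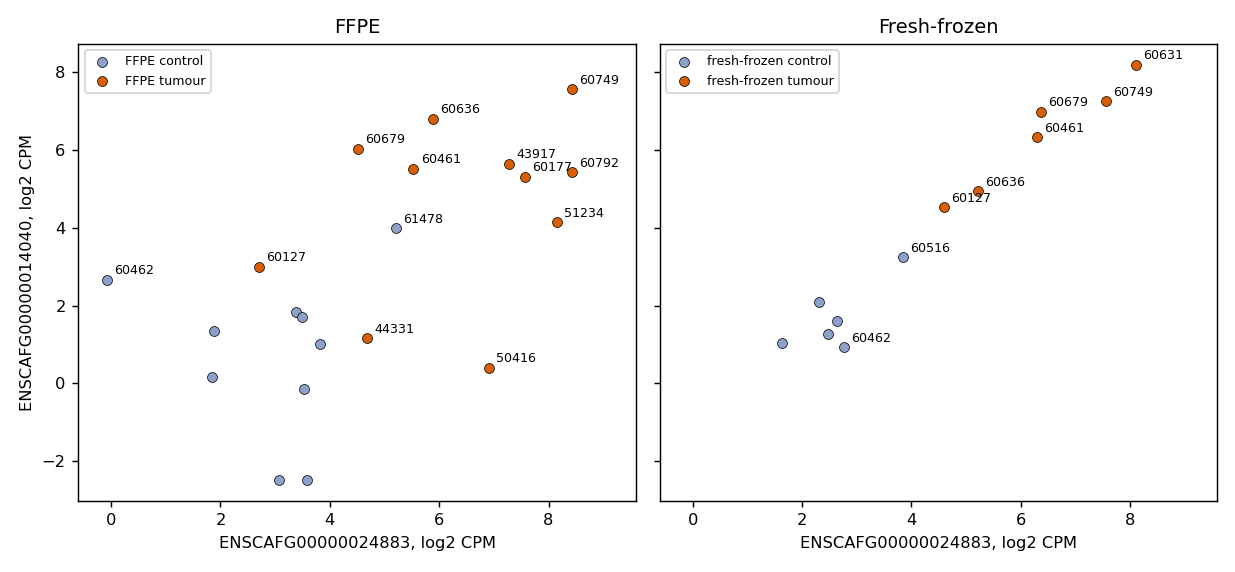
ENSCAFG00000014040 against ENSCAFG00000024883, in log2 CPM (TMM, prior count 2), in FFPE (11 tumours, 10 controls) and fresh-frozen libraries (6 and 6), with a point per library. Frozen tumours lie close to a line (r = 0.97), while FFPE tumours scatter (r = 0.32), with dog 50416 high in 1 gene and low in the other.

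Each gene was then compared with the rest of its chromosome. A chromosome's shift was computed for each library as the median difference in log2 CPM from the control mean over its tested genes, the member left out, less the corresponding median of all genes. Chromosome 20 ranged from -0.53 in dog 60127 to 0.90 in dog 60749 among FFPE tumours, and from -0.17 to 0.67, again in dogs 60127 and 60749, among frozen tumours. ENSCAFG00000014040 followed it with r = 0.92 over 6 frozen tumours (exact permutation p = 0.00833, adjusted p = 0.0208) and rho = 0.94 (exact permutation p = 0.0167, adjusted p = 0.0417). Over 11 FFPE tumours r was 0.72 (permutation p = 0.0128, adjusted p = 0.0895) and rho 0.65 (permutation p = 0.0368, adjusted p = 0.258). Without the 2 libraries farthest from the median shift r was 0.93 in frozen and 0.65 in FFPE tumours. Over 5 frozen tumours r was 0.88 to 0.94, and the adjusted exact permutation p was 0.125 without dog 60636, 60127 or 60461, 0.0833 without dog 60679 and 0.0417 without dog 60631 or 60749. The FFPE relation did not pass after adjustment. It passed only when dog 44331 (shift 0.11, 1.93 CPM) was left out (r = 0.81, adjusted permutation p = 0.0205). Without any other single tumour the adjusted permutation p was 0.0755 to 0.264. Dogs 60127 (-0.53) and 50416 (-0.37) had the most negative shifts and levels below the highest control. Dog 60679 had 64.1 CPM with a shift of 0.02, and dog 51234 had 17.7 CPM with -0.20, both above every FFPE control.

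Chromosome 20 also moved among libraries without a tumour. Frozen controls 60126 and 60462 stood at -0.23 and -0.21, and the other 4 at 0.04 to 0.15. Both dogs belong to the set of frozen libraries that stood apart on the second component, as do tumour dogs 60127 (-0.17) and 60461 (0.27). In frozen controls that set and the shift could not be told apart. Dog 60127 was also the low end of the relation over frozen tumours. FFPE controls ran from -0.45 in dog 60462 to 0.30 in dog 50315, while ENSCAFG00000014040 was at most 16.4 CPM in all of them. Dogs 60462 and 50315 were the FFPE controls with the fewest total counts, 1596967 and 406406. The other FFPE controls ran from -0.19 to 0.19. The gene on chromosome 35 also followed the shift of chromosome 20 closely in frozen tumours, though not past the adjusted threshold, with r = 0.91 for ENSCAFG00000024883 (exact permutation p = 0.00833, adjusted p = 0.0750 over 9 added relations; rho 0.94, exact permutation p = 0.0167, adjusted p = 0.150; 0.83 without the 2 farthest). In FFPE tumours that r was 0.58 (permutation p = 0.0602, adjusted p = 0.108; rho 0.66, permutation p = 0.0312, adjusted p = 0.0677) and 0.14 without the 2 farthest libraries.

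For ENSCAFG00000024883 the relation with its own chromosome did not pass. Chromosome 35 ranged from -0.03 in dog 44331 to 1.21 in dog 51234 among FFPE tumours, and r was 0.52 (permutation p = 0.0989, adjusted p = 0.265; rho 0.55, permutation p = 0.0819, adjusted p = 0.287), falling to 0.24 without the 2 farthest libraries. Over 6 frozen tumours r was 0.74 (exact permutation p = 0.111, adjusted p = 0.133; rho 0.66, exact permutation p = 0.175, adjusted p = 0.175; 0.63 without the 2 farthest). Dog 60177 showed the gene at 157 CPM with a shift of 0.03, and dog 60679 had 22.2 CPM with a shift of 0.49. With genes between 23 and 26 Mb of chromosome 35 left out, an interval that does not hold ENSCAFG00000024883, r was 0.31 in FFPE (permutation p = 0.361, adjusted p = 0.464; rho 0.33, permutation p = 0.327, adjusted p = 0.420; 0.48 without the 2 farthest) and 0.56 in frozen tumours (exact permutation p = 0.239, adjusted p = 0.239; rho 0.54, exact permutation p = 0.297, adjusted p = 0.382; 0.17 without the 2 farthest).

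**Figure D4:**
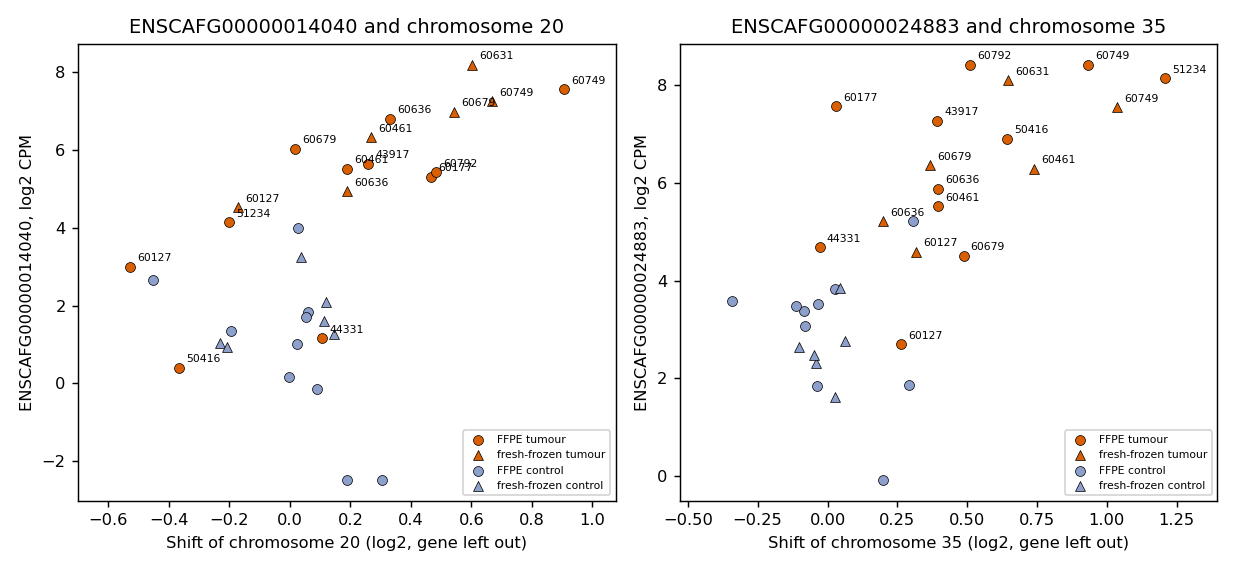
Level of each gene in log2 CPM against the shift of its own chromosome (log2, gene itself left out), with a point per library, circles for FFPE and triangles for fresh-frozen, orange for tumours and blue for controls. Frozen tumours lie close to a line for ENSCAFG00000014040 and chromosome 20 (r = 0.92), FFPE tumours scatter more (r = 0.72), and ENSCAFG00000024883 spreads widely at a given shift of chromosome 35.

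Co-variation was then described gene by gene over 11860 other genes with an average of at least 2 log2 CPM in both comparisons. Correlations were taken over the 11 FFPE and the 6 frozen tumours separately. They are descriptions with no p, since all genes share the same libraries and 5 dogs are in both sets. For ENSCAFG00000014040 the median r of 603 genes of chromosome 20 was 0.47 in FFPE and 0.54 in frozen tumours, where the median over all genes was 0.06 and 0.01. Chromosome 20 had the highest median of 39 chromosomes in both. For ENSCAFG00000024883, however, chromosome 20 was also number 2 in FFPE (0.32) and number 1 in frozen tumours (0.55). Chromosome 35 was number 3 and number 4 for that gene, with medians of 0.20 and 0.42 over 123 genes, and chromosome 13 was number 1 in FFPE tumours (0.33).

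Along chromosome 20 the median r with ENSCAFG00000014040 was 0.51 in FFPE and 0.58 in frozen tumours for the 194 genes from 40 to 50 Mb, which surround it. It was 0.47 and 0.69 for the 189 genes from 50 Mb on, and 0.47 and 0.41 for the 87 genes of the first 10 Mb. The 25 genes from 20 to 30 Mb stood at 0.17 and 0.09. Genes from 10 to 20 Mb, 17 in number, stood at 0.21 and -0.28, a window too thinly filled to be read. High values were thus found at both ends of the chromosome and not only around the gene.

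**Figure D5:**
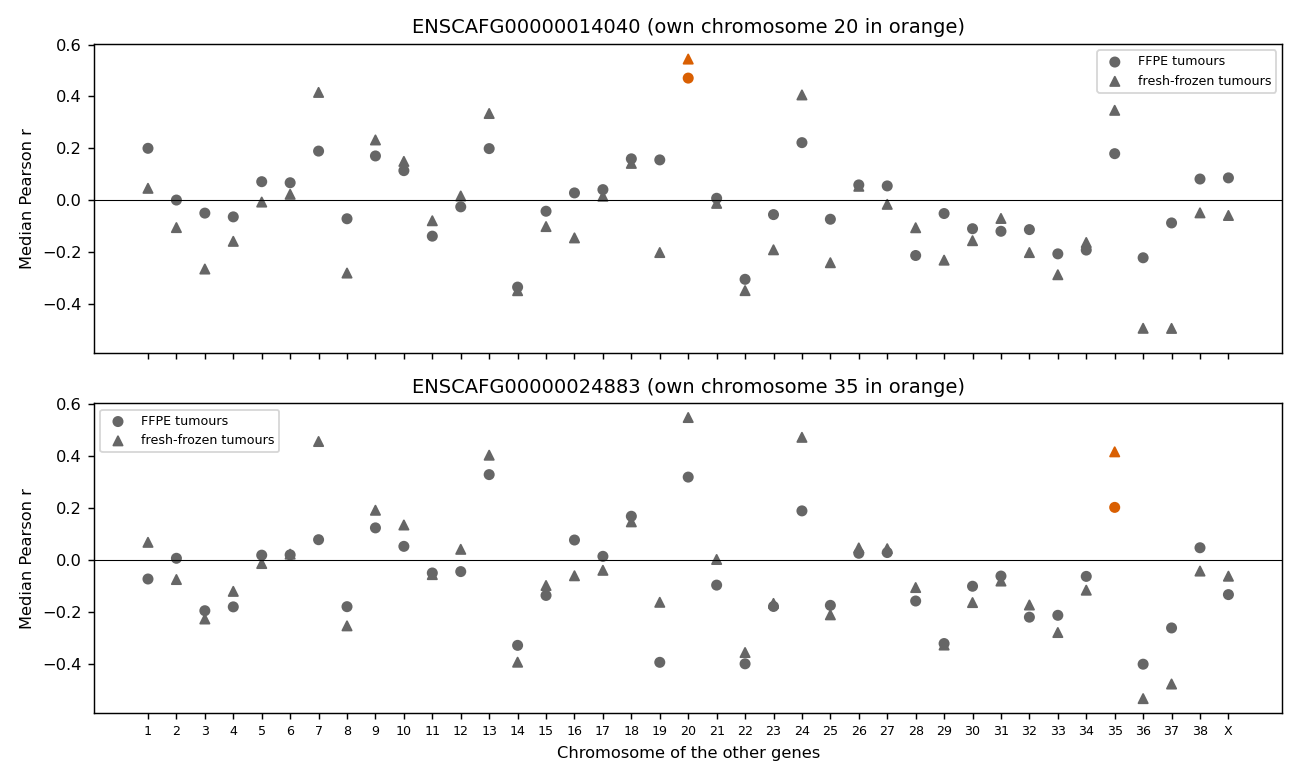
Median Pearson r of each gene with the other genes of every chromosome, over 11 FFPE tumours (circles) and 6 fresh-frozen tumours (triangles), with the gene's own chromosome in orange. Chromosome 20 is highest for ENSCAFG00000014040, at 0.47 and 0.54, and is also among the highest for ENSCAFG00000024883.

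The genes most like each member were taken by the smaller of their r in FFPE and in frozen tumours. For ENSCAFG00000014040 the closest was a gene of 17 exons on chromosome 20 (5892834 to 5972090), with r of 0.91 and 0.90. It rose in tumours with log2 fold changes of 1.02 in FFPE (edgeR adjusted p = 0.00593) and 1.45 in frozen tissue (edgeR adjusted p = 0.00242). The next was a gene of 4 exons on chromosome 1 (101354359 to 101360086), with r of 0.88 and 0.99, which rose in frozen tumours alone by the test (1.14, edgeR adjusted p = 0.0204; 0.54 in FFPE, edgeR adjusted p = 0.356). The third was a gene of 9 exons on chromosome 20 (50961551 to 50965961), with r of 0.86 and 0.92 and log2 fold changes of 0.07 and 0.49 that did not pass (edgeR adjusted p = 0.886 and 0.234). Ordered by the smaller Spearman rho instead, these genes were number 63, 110 and 13, so their order depended on the measure. Among the 50 closest genes 22 lay on chromosome 20, which holds 5.08% of the genes compared. By rho 21 of 50 did, and 17 genes were in both lists of 50.

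For ENSCAFG00000024883 the closest was a gene of 23 exons on chromosome 18 (49439483 to 49516396), with r of 0.94 in FFPE and 0.97 in frozen tumours. It rose by 1.49 in FFPE (edgeR adjusted p = 0.00357) and 1.91 in frozen tumours (edgeR adjusted p = 0.00576). The next was a gene of 3 exons on chromosome 10 (26681122 to 26689882), with r of 0.95 and 0.94, which rose by 2.60 (edgeR adjusted p = 0.00269) and 3.16 (edgeR adjusted p = 0.000701). The third was a gene of 9 exons on chromosome 23 (31148609 to 31162369), with r of 0.93 and 0.95 and log2 fold changes of 0.71 (edgeR adjusted p = 0.124) and 0.95 (edgeR adjusted p = 0.0391). Ordered by the smaller Spearman rho, these genes were number 6, 6 (tied) and 1, and 29 genes were in both lists of 50. None of the 50 closest genes lay on chromosome 35, and the most frequent chromosome was 13, with 11 of the 50. A total of 158 genes had r of at least 0.8 in both preservations, against 30 for ENSCAFG00000014040, and 252 genes had r of -0.8 or lower in both, against 4. ENSCAFG00000024883 was number 1954 of 11860 by likeness to ENSCAFG00000014040, and number 2512 the other way round. Of each list of 50, 21 genes were called higher in FFPE tumours, and 34 (ENSCAFG00000014040) or 42 (ENSCAFG00000024883) in frozen tumours, with 0 called lower. Over all genes tested, 10.1% and 18.3% were called higher and 11.1% and 12.2% lower. The lists were picked for following genes that were themselves chosen as high in tumours, so these counts are no independent evidence.

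Within each preservation, no neighbour had a fold change as high as that of the member it lies beside. Among the 10 tested genes on each side of ENSCAFG00000014040, 3 rose and 1 fell in FFPE tumours (median log2 fold change -0.08, over all genes 0.02) and 7 rose and 1 fell in frozen tumours (median 0.60, over all genes 0.10). Over all other tested genes of chromosome 20, 92 of 656 rose in FFPE tumours (median 0.23) and 215 of 722 in frozen tumours (median 0.49), so the neighbours' counts were near the share of the chromosome. Their median r with the gene was 0.22 and 0.06. A gene of 37 exons at 43359206 to 43532219 of chromosome 20, picked after its values were seen, stood out with a log2 fold change of 4.57 in frozen tumours (edgeR adjusted p = 0.00199) and 1.58 in FFPE tumours (edgeR adjusted p = 0.105). Its r with ENSCAFG00000014040 was 0.06 in FFPE and 0.10 in frozen tumours. Other neighbours, also picked after their values were seen, followed ENSCAFG00000014040 or went against it. A gene of 26 exons at 43618589 to 43635000 had r of 0.83 in FFPE and 0.96 in frozen tumours. It rose in both (0.93, edgeR adjusted p = 0.0229, and 1.36, edgeR adjusted p = 0.0107). A gene of 12 exons at 43379722 to 43431414 had r of 0.92 and 0.56. A gene of 10 exons at 42651802 to 42666417 had r of -0.56 and -0.74. No other tested gene of chromosome 20 had a fold change as high as ENSCAFG00000014040 in either preservation. Among the neighbours of ENSCAFG00000024883, 6 rose and 2 fell in FFPE tumours (median 0.54) and 5 rose and 0 fell in frozen tumours (median 0.17), with a median r of 0.12 and 0.29. Over all other tested genes of chromosome 35, 40 of 133 rose in FFPE tumours (median 0.53) and 66 of 168 in frozen tumours (median 0.64), shares no lower than those of the neighbours. In frozen tumours 7 other genes of chromosome 35 had a fold change as high as ENSCAFG00000024883, and in FFPE tumours 0 did. The next tested gene in FFPE tissue, of 21 exons at 20155645 to 20647464 of chromosome 35, rose by 2.58 (edgeR adjusted p = 0.00510) with an r of 0.57, and had 0.98 in frozen tissue (edgeR adjusted p = 0.0637). A gene of 4 exons at 22216930 to 22237411 went against ENSCAFG00000024883 among tumours, with r of -0.78 in FFPE and -0.95 in frozen tissue. It fell in FFPE tumours (-1.48, edgeR adjusted p = 0.00859), and its value in frozen tumours was -1.45 (edgeR adjusted p = 0.0530). These last 2 genes were also picked after their values were seen.

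Breed, grade, age and depth were the labelled or measured differences among tumours that the choice of genes had not used. ENSCAFG00000014040 had a mean of 4.25 ± 2.56 log2 CPM in 4 Boxers and 5.17 ± 2.29 in 6 French Bulldogs (SD), and Boxer minus French Bulldog was -0.99 ± 0.97 (SE; edgeR adjusted p = 1.00). ENSCAFG00000024883 had 7.03 ± 1.19 in Boxers and 6.54 ± 1.74 in French Bulldogs, and the fitted difference was 0.16 ± 0.76 (edgeR adjusted p = 1.00), with 1.01 ± 0.70 by limma voom (adjusted p = 0.999). The 2 grade II tumours were not alike. Dog 60679 had 64.1 CPM of ENSCAFG00000014040 and 22.2 CPM of ENSCAFG00000024883, and dog 51234 had 17.7 and 288 CPM. Grade II minus grade III was -0.44 ± 1.26 for the former gene and 0.00 ± 1.09 for the latter (edgeR adjusted p = 1.00 for each), and it was -2.70 for ENSCAFG00000024883 without dog 51234 and -1.66 for ENSCAFG00000014040 without dog 60679, where 1 grade II tumour is assumed to vary like the others. By edgeR 0 genes were called for breed (13873 tested, 0%) and 0 for grade (15297 tested, 0%).

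Age showed no relation that could be detected over 10 FFPE tumours, with r = -0.01 for ENSCAFG00000014040 (permutation p = 0.968, adjusted p = 0.968; rho 0.03, permutation p = 0.947; 0.16 without the 2 farthest) and 0.03 for ENSCAFG00000024883 (permutation p = 0.946, adjusted p = 0.968; rho 0.14, permutation p = 0.710; -0.41 without the 2 farthest). The age of dog 60461 was taken from the label of its frozen library. Log10 of the total count gave r = 0.09 for ENSCAFG00000014040 (permutation p = 0.793, adjusted p = 0.968; rho 0.17, permutation p = 0.617; 0.52 without the 2 farthest) and -0.51 for ENSCAFG00000024883 (permutation p = 0.114, adjusted p = 0.265; rho -0.39, permutation p = 0.237; -0.17 without the 2 farthest) over 11 FFPE tumours. The latter passed without dog 60749, the highest tumour, at r = -0.78 (adjusted permutation p = 0.0475). In frozen tumours the values were -0.65 (exact permutation p = 0.133, adjusted p = 0.133; rho -0.77, exact permutation p = 0.103; -0.31 without the 2 farthest) and -0.76 (exact permutation p = 0.0917, adjusted p = 0.133; rho -0.77, exact permutation p = 0.103; -0.29 without the 2 farthest), with 6 libraries each.

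The position of a library among other tumour genes was set beside each gene, and the difference between both genes was not tested. The higher and lower genes were chosen on the same libraries and contrasts as both members. These relations are therefore a description, and their p-values are not read as evidence. Over FFPE tumours, with the median of the 1119 higher genes, r was 0.71 for ENSCAFG00000024883 (permutation p = 0.0145, adjusted p = 0.0537; rho 0.76, permutation p = 0.00864, adjusted p = 0.0677; 0.68 without the 2 farthest) and 0.49 for ENSCAFG00000014040 (permutation p = 0.129, adjusted p = 0.193; rho 0.35, permutation p = 0.287; -0.07 without the 2 farthest). With the median of the 851 lower genes, r was -0.70 (permutation p = 0.0179, adjusted p = 0.0537; rho -0.65, permutation p = 0.0361; -0.73 without the 2 farthest) and -0.07 (permutation p = 0.836, adjusted p = 0.836; rho -0.14, permutation p = 0.695; -0.80 without the 2 farthest). Over the 6 frozen tumours r with the higher genes was 0.71 for ENSCAFG00000014040 (exact permutation p = 0.167, adjusted p = 0.209; rho 0.37, exact permutation p = 0.497; 0.72 without the 2 farthest) and 0.78 for ENSCAFG00000024883 (exact permutation p = 0.133, adjusted p = 0.209; rho 0.37, exact permutation p = 0.497; 0.87 without the 2 farthest). With the lower genes it was -0.65 (exact permutation p = 0.186, adjusted p = 0.209; rho -0.54, exact permutation p = 0.297; -0.92 without the 2 farthest) and -0.78 (exact permutation p = 0.117, adjusted p = 0.209; rho -0.54, exact permutation p = 0.297; -0.89 without the 2 farthest). The gap between both genes seen with the lower genes in FFPE tumours (-0.70 and -0.07) was not seen there without the 2 farthest libraries (-0.73 and -0.80). It was not seen in frozen tumours either. None of these passed after adjustment over 9 relations in each preservation.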

How the data were processed

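Per the file headers, the authors counted paired reads per gene with featureCounts 1.6.0 against Ensembl release 100 models of CanFam3.1, on the forward strand (setting 1) and at mapping quality 10 or above, and deposited these raw counts without scaling. The submitters' processing notes name fastp and STAR. Libraries carried molecular identifiers of 12 nt, per the labels' protocols, but no source used here says whether copies were collapsed. Exonic lengths (bp) came from the same deposited table.

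All genes were fitted together in edgeR 4.0.16 under R 4.3.3, after filterByExpr and TMM scaling, by robust quasi-likelihood F tests with Benjamini-Hochberg adjustment at 0.05. Alternatives were RLE size factors, DESeq2 1.42.0, limma voom 3.58.1 with quality weights, no filter on low counts, mitochondrial genes left out, other prior counts and subsets of dogs. Log2 CPM used a prior count of 2 (0.5 as alternative) and TMM over all 33 libraries. SE is the fold change divided by the root of F. Correlations were tested by permutation, two-sided (100000 resamples, exact under 10 libraries), in 32 relations, of which 12 were planned and 20 added. Poisson intervals are exact at 95%. The limit for 0 counts is 3 counts.

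Dog numbers name the animal, and 7 of 8 pairs of libraries of the same dog deviated together with a correlation over 0.1 (0.084 to 0.752). The fits were tested on simulated data. Changes were planted only in genes above a minimum mean count, and libraries were drawn independently, without the pairing by dog. The rates below hold for that setting only. They recovered 100% of 16-fold and 32.8% of 2-fold changes in the FFPE tumour comparison (13104 genes), 98.5% and 8.96% in the frozen one (14907 genes), and 98.5% and 26.9% for preservation (16918 genes).

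The members, lists and tests were chosen with earlier results of these data known. The genes named beside the members were the 3 with the highest smaller r, as described, and the exceptions are said to be picked after their values were seen. Identifiers matched 0 entries of the RefSeq gene table, so like genes and neighbours are given by position. No sequence is printed.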

Additional observations from a re-analysis of the deposited data

How the results depend on the processing

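Of 327 alternative values for the results above, 287 kept their direction and, where a threshold applies, their side of it. The count includes refits of tumour minus control, the contrast that chose both genes, and differences that stayed undetected. It is therefore a description and no evidence for the rise of either gene. Leaving out each library gave tumour differences of 3.36 to 4.59 (ENSCAFG00000014040) and 3.40 to 4.07 (ENSCAFG00000024883) in FFPE, and 4.47 to 5.47 and 3.59 to 4.42 in frozen tissue. Outside these ranges lay ENSCAFG00000014040 in FFPE tissue without the 8 dogs with both preservations (2.61, no longer called) and ENSCAFG00000024883 in FFPE tissue by voom (2.91). FFPE minus frozen passed in no fit run and changed sign for ENSCAFG00000014040 with no filter (-0.025), limma voom (-0.077), the dog as a replicate block (-0.15 ± 0.38, edgeR adjusted p = 0.835) and the block in tumour dogs only (-0.22), and for ENSCAFG00000024883 in tumour dogs only (0.26). ENSCAFG00000024883 stood at -0.63 ± 0.37 with the block (edgeR adjusted p = 0.307), -0.54 with the block in tumour dogs and -0.63 by voom, and the block changed no call of either gene. Leaving out each dog gave -0.10 to 0.31 and -0.76 to 0.081. Boxer minus French Bulldog ran from -1.24 to -0.40 and from -0.51 to 0.58, and grade from -1.66 to 0.23 and from -2.70 to 0.96, each without 1 library. By voom ENSCAFG00000024883 gave 1.01 for breed and -0.19 for grade. Breed called 0 genes by DESeq2 and voom too, and grade 4 by DESeq2; 2-fold breed differences were recovered in 1.49% of simulated cases, so small ones were not detectable. Over FFPE tumours, leaving out 1 library gave r of 0.63 to 0.81 for ENSCAFG00000014040 with chromosome 20, -0.12 to 0.29 with depth and -0.19 to 0.28 with age, and 0.43 to 0.68, -0.78 to -0.21 and -0.32 to 0.29 for ENSCAFG00000024883 with chromosome 35, depth and age. Over 5 frozen tumours r was 0.95 to 0.99 between both genes, 0.88 to 0.94 for ENSCAFG00000014040 with chromosome 20, 0.67 to 0.85 for ENSCAFG00000024883 with chromosome 35, and -0.73 to -0.51 and -0.83 to -0.68 with depth. The former pair no longer passed without 4 of the 6 tumours, with 5 libraries in the exact test. Other causes were not tested.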
